A study of Rattus norvegicus with 6 samples.

Results

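The genes described here encode feedback inhibitors and transcriptional outputs of the ERK pathway: the Sprouty genes Spry1, Spry2 and Spry4, the SPRED genes Spred1 and Spred2, the dual-specificity phosphatase genes Dusp4, Dusp5 and Dusp6, and the ETS transcription factor genes Etv4 and Etv5. They were chosen by symbol, and all 10 had 1 row each among the 33350 gene models of the deposited expression table. All 10 were above the expression minimum and were among the 12198 genes tested. The 6 libraries came from rat cells labelled PC12, an adrenal pheochromocytoma line. In the 3 EC libraries the cells had been treated with exosomes, small secreted vesicles, from control endothelial cells. In the 3 EN libraries the exosomes came from endothelial cells expressing netrin-1 (NTN1), an axon guidance protein, at a high level. Both groups thus received endothelial exosomes, and no untreated cells were among the libraries. The labels give no dose or duration, and they do not say whether each replicate was a culture of its own. The p-values therefore rest on a spread between libraries that may be technical.

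ERK is the last kinase of a relay that runs from receptor tyrosine kinases through Ras, Raf and MEK. Active ERK switches on genes whose products turn the relay down again. Sprouty and SPRED proteins act on the steps around Ras and Raf, dual-specificity phosphatases remove the activating phosphates from ERK, and Etv4 and Etv5 carry the signal to further genes. In PC12 cells the pathway is best known for the response to nerve growth factor, in which lasting ERK activity accompanies the growth of neurites.

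Spry1 and Spry2 were lower in EN and Etv4 was higher, each by 1.27-fold to 1.45-fold in mean expression. Thus 3 of the 10 had an adjusted p under 0.05 in limma's test (Benjamini-Hochberg over all genes), 1 as higher and 2 as lower in EN, where 14.4% of all genes tested passed, 7.24% as higher and 7.14% as lower. The other 7 did not pass. Their log2 changes lay between 0.02 (Spred1) and 0.26 (Dusp5). With only genes of at least 5 FPKM on average tested, 4 of the 10 passed, beside 22% of the 9204 genes. All 3 EN values lay above all 3 EC values in 6 of the 10 genes, against 18.6% of genes tested, and below them in 2, against 19.4%. The median log2 change of the 10 was 0.12 and that of all genes tested -0.0028, while the median absolute change was 0.16 for the 10 and 0.13 for all. Log2 changes are of FPKM + 1, EN minus EC. FPKM is the number of reads adjusted for the length of the gene model and the size of the library, and folds are ratios of mean FPKM.

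**Figure D1:**
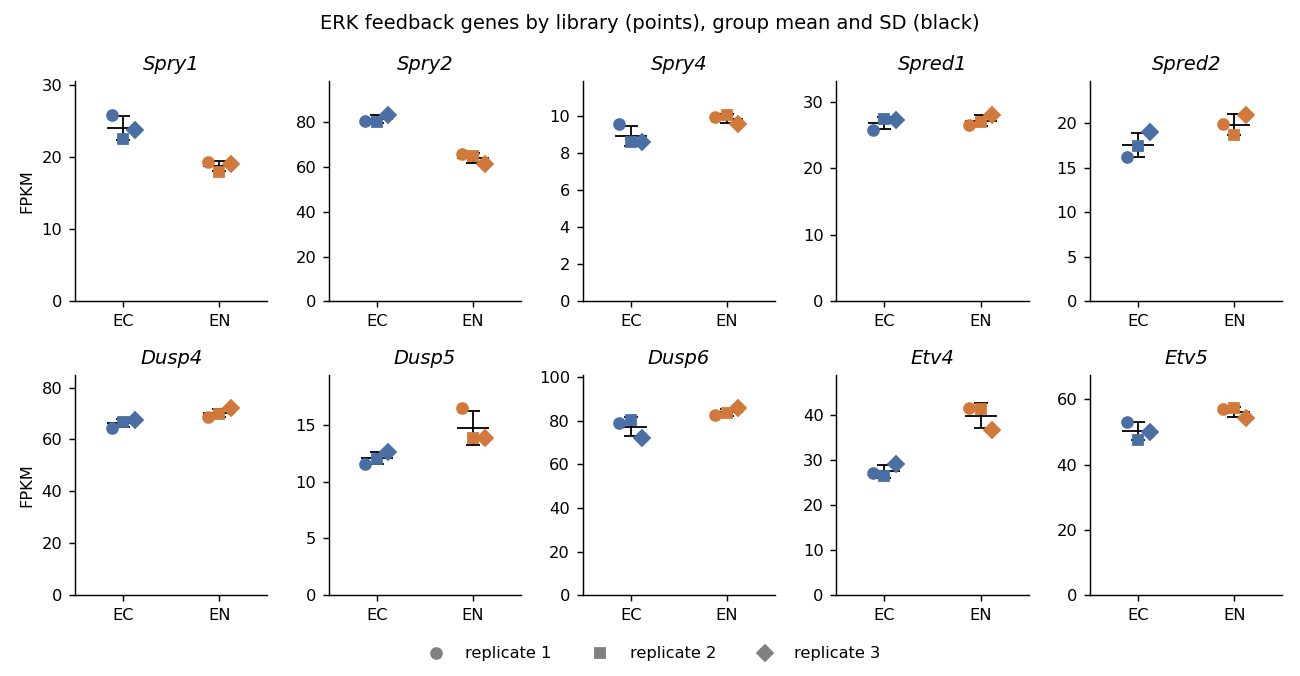
FPKM of the 10 ERK feedback genes (vertical axes from 0, a separate scale for each gene) in the 3 EC and 3 EN libraries. Points are libraries with the replicate number as the marker, and black marks are the mean and SD. Spry1 and Spry2 are lower in all EN libraries than in all EC libraries, Etv4 is higher in all of them, and Spred1 overlaps.

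The libraries held 15296193 to 19626012 reads worked back from the FPKM values, each EN library being deeper than each EC library. The 10 genes had 3201 (Spred2) to 27339 (Dusp4) reads each over the 6 libraries. Ntn1 itself had 4 reads in all, 2 of them from EC replicate 1 and 2 from EN replicate 2. Markers did not follow the label of the cells. Of 12 chromaffin markers, 1 reached a mean of 10 FPKM (Gch1), and Hand2 and Pnmt had no read, while 5 of 9 Schwann cell markers in the table reached it. The summed FPKM of the Schwann list was 467.1 to 476.8 in EC and 412.8 to 445.8 in EN. Of its 8 tested markers 5 passed as lower and 1 as higher, against 7.14% and 7.24% of all genes tested. The chromaffin list summed to 20.4 to 21.9 in EC and 20.7 to 24.0 in EN. The 7 endothelial markers in the table summed to 1.63 to 2.04 and 1.55 to 1.99, with Cldn5 at 0. The fibroblast list summed to 73.7 to 77.1 and 71.9 to 75.2, with Lum at 0. Most of the fibroblast sum was the receptor gene Pdgfra, with means of 65.0 (EC) and 64.6 FPKM (EN). The collagen gene Col1a1 averaged 1.44 and 1.19. The part of these differences in the results that follow was not tested. In bulk RNA, fewer cells of a type and less RNA per cell cannot be told apart.

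Of the 3 Sprouty genes, 2 fell and 1 did not pass. Spry2 encodes a Sprouty protein that is itself induced by growth factor signalling and that restrains ERK activation by receptor tyrosine kinases. Spry2 (chromosome 15, 90172975 to 90175802 on Rnor_6.0, the build of the table) stood at 80.7, 80.2 and 83.3 FPKM in EC replicates 1 to 3 and at 65.6, 64.8 and 61.5 in EN replicates 1 to 3. The lowest EC library was thus well above the highest EN library. Spry2 went from 81.4 ± 1.69 to 64.0 ± 2.18 FPKM (n = 3 per group, SD), a 1.27-fold decrease with a log2 change of -0.34 ± 0.039 (SE) and a limma adjusted p of 0.0056. By p it ranked 112 of the 12198 genes and 80 among those with a negative change. It passed in all 15 alternatives tried, including each fit with 1 library left out.

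Spry1, its close relative (chromosome 2, 124400679 to 124405331), was at 25.9, 22.6 and 23.8 FPKM in the EC libraries and at 19.3, 17.96 and 19.1 in the EN libraries. The groups did not overlap, although EC replicate 1 stood above the other EC libraries. The mean went from 24.1 ± 1.69 to 18.8 ± 0.730 FPKM (n = 3 per group, SD), a 1.28-fold decrease with a log2 change of -0.34 ± 0.061 (SE) and a limma adjusted p of 0.018. This call was lost without EC replicate 3 (adjusted p = 0.069) and without replicate 1 or 2 of EN (0.053 and 0.071).

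Spry4, the remaining Sprouty gene of the set (chromosome 18, 32594958 to 32609864), did not pass. It was at 9.55, 8.60 and 8.57 FPKM in EC and at 9.91, 10.1 and 9.56 in EN, so that the lowest EN library exceeded the highest EC library only narrowly. Its log2 change was 0.13, with a 95% interval of -0.013 to 0.28 and an adjusted p of 0.189 (limma). The ratio of Spry2 to Spry4 within a library does not depend on how libraries are scaled. It was 8.45, 9.32 and 9.72 in EC and 6.62, 6.45 and 6.43 in EN, without overlap (exact two-sided permutation p = 0.1, the smallest that 3 against 3 can give; ratios of 8 pairs of members were computed, chosen with the values known, and none can pass after adjustment). The ratio of Spry1 to Spry4 likewise separated the groups, at 2.63 to 2.78 in EC and 1.79 to 1.995 in EN. Spry2 over Spry1 ran from 3.11 to 3.55 in EC and from 3.22 to 3.61 in EN, and these ranges overlap. Spry3, which is no member, had 27 reads in all libraries together and was not tested.

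The promoters of the 3 Sprouty genes are shown because the genes divided into a pair that fell and one that did not pass. RefSeq gave a window from 250 bases before to 50 after the start on the GRCr8 build for 8 of the 10 genes, 9 windows in all since Spry2 has 2. Dusp4 and Etv4 had no entry. The patterns searched were the following, on both strands: CCGGAA for ETS factors, TGACGTCA for the cyclic AMP response element, TGANTCA for AP-1, TGAATGNA for capicua (a repressor that ERK signalling relieves), GCGNGGGCG for EGR factors, and the CArG box of serum response factor. TGAATGG, which overlaps the capicua pattern, was added after the sequences were seen. Capitals mark every match. The windows lie at chr2:122485097-122485396, plus strand for Spry1, at chr15:89111877-89112176, minus strand and chr15:89109793-89110092, minus strand for Spry2, and at chr18:30702497-30702796, minus strand for Spry4.
Spry1: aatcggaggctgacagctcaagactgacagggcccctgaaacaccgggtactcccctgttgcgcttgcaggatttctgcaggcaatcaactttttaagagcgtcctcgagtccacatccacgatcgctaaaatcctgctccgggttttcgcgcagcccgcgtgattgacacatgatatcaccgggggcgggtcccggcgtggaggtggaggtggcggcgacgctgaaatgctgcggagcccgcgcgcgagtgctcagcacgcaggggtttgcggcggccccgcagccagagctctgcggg
Spry2, first start: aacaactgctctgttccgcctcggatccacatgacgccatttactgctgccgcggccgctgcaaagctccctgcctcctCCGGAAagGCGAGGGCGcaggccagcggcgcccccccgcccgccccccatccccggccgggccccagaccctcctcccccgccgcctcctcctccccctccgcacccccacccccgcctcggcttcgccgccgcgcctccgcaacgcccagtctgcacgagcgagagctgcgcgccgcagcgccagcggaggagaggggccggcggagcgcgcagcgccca
Spry2, second start: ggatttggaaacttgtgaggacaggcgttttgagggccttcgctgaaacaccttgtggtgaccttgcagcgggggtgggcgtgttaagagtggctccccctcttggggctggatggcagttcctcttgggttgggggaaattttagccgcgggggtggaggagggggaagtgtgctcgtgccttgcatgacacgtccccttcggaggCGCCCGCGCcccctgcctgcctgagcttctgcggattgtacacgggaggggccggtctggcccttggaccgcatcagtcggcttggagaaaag
Spry4: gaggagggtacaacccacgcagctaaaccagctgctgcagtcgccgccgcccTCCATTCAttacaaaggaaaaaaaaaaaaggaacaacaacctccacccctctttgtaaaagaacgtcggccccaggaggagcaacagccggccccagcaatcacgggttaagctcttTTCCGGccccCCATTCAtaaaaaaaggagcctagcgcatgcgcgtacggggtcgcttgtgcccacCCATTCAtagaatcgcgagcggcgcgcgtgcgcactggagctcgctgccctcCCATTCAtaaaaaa
The Spry1 window held none of these patterns. In the first Spry2 window, CCGGAA began at base 80 and an EGR pattern at base 88, and the second held an EGR pattern on the other strand at base 208, counting from 1 at the 5′ end. CCGGAA stood in 15% of the 33469 RefSeq promoters and the EGR pattern in 4.98%. The 9 windows of the members were 56.0% to 76.3% G or C, against a median of 51.7% over all promoters. No share of promoters given here was adjusted for this. Spry4 held CCGGAA on the other strand at base 170 and the capicua pattern at base 53. It also held TGAATGG 4 times on the other strand, at bases 54, 180, 235 and 287. Among all 33469 promoters, 3.69% held TGAATGG at least once, 1 held it at least 4 times, and that one is Spry4. The cut of 4 was set at the number in Spry4, so its place among such promoters was fixed beforehand. The capicua pattern stood in 4.11% of promoters. These matches describe the letters only, and no binding was measured.

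The SPRED genes did not pass. SPRED proteins share a domain with Sprouty proteins and bring neurofibromin, which switches Ras off, to the membrane. Spred1 was at 25.8, 27.4 and 27.4 FPKM in EC and at 26.5, 27.1 and 28.1 in EN, with overlapping groups. Its log2 change of 0.02 had a 95% interval of -0.088 to 0.13, and its sign changed without EC replicate 1 or EN replicate 3. Spred2 was at 16.3, 17.4 and 19.0 FPKM in EC and at 19.96, 18.7 and 21.0 in EN. Here EC replicate 3 overlapped EN replicate 2, and the log2 change was 0.17 (95% interval 0.0046 to 0.33, limma adjusted p = 0.146). The related Spred3 averaged 8.49 ± 0.097 FPKM in EC and 9.22 ± 0.508 in EN (n = 3 per group, SD) and did not pass (limma adjusted p = 0.260).

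The 3 phosphatase genes of the set had positive differences that did not pass. Dusp6 encodes a cytoplasmic phosphatase with a strong preference for ERK. It was at 79.2, 80.3 and 72.2 FPKM in EC and at 82.6, 83.4 and 85.6 in EN, where EC replicate 3 lay below the other EC libraries. Its log2 change was 0.12 (95% interval 0.0042 to 0.23, limma adjusted p = 0.143). Dusp4 encodes a nuclear phosphatase that acts on ERK and on the stress kinases. It was at 64.6, 66.7 and 67.4 FPKM in EC and at 68.8, 69.8 and 71.9 in EN, a log2 change of 0.08 (95% interval -0.0042 to 0.17, limma adjusted p = 0.173). Dusp5, a nuclear phosphatase specific for ERK, was at 11.6, 12.04 and 12.6 FPKM in EC and at 16.5, 13.8 and 13.9 in EN. EN replicate 1 stood above the other EN libraries. Dusp5 had the largest log2 change of the 3, 0.26 (95% interval 0.078 to 0.44, limma adjusted p = 0.065). In all 3 genes each EN library was above each EC library, which held for 18.6% of all genes tested.

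Reads can be worked back from the FPKM values, and a test on these reads (limma voom, scaled by total reads) passed more of the genes. With it 6 of the 10 passed, 4 higher and 2 lower, against 19.2% of all genes. The added ones were Dusp5 (limma voom adjusted p = 0.040), Dusp6 (0.047) and Etv5 (0.030), with log2 changes of 0.30, 0.14 and 0.19. Dusp4, Spry4 and the SPRED genes did not pass there either.

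Of the other MAP kinase phosphatase genes, Dusp1 rose. Dusp1, an immediate early gene whose product acts on ERK and the stress kinases, was at 6.87, 6.74 and 6.12 FPKM in EC and at 9.53, 10.2 and 9.26 in EN. The groups were well apart, and the mean went from 6.58 ± 0.399 to 9.68 ± 0.508 FPKM (n = 3 per group, SD), a 1.47-fold increase with a log2 change of 0.50 ± 0.068 (SE) and a limma adjusted p of 0.0090. It passed in all 15 alternatives. Dusp7, Dusp8, Dusp10 and Dusp16 did not pass and had log2 changes of -0.07 to 0.02, all with overlapping groups. Dusp2 and Dusp9 had no read in any library, which allows up to 0.018 and 0.012 FPKM over all 6 (3 reads, counting error only). In the list of relatives as a whole, 1 of 7 tested genes passed, as higher, and 6 did not, with a median log2 change of 0.01. The share called was 14.3%, beside 14.4% of all genes.

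**Figure D2:**
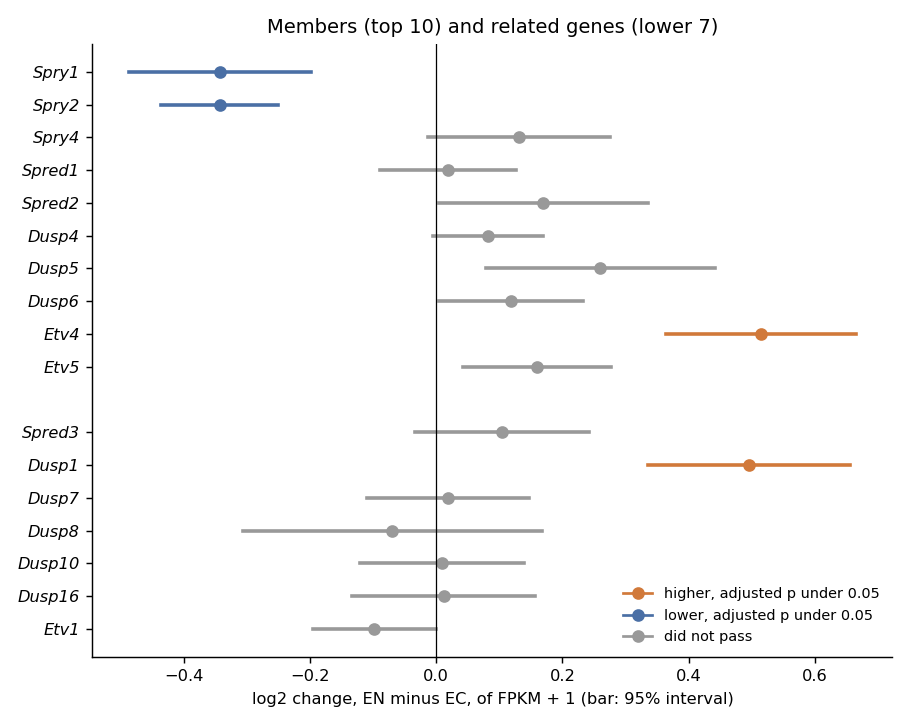
Log2 change (EN minus EC, horizontal axis) with its 95% interval from limma for the 10 members, above, and the 7 tested related genes, below. Spry1 and Spry2, each at -0.34, are the genes that passed as lower, and Etv4 (0.51) and Dusp1 (0.50) those that passed as higher.

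The Dusp5 promoter is shown because its window holds a pair of adjoining CArG boxes, the pattern bound by serum response factor, which works with ERK-activated ETS factors. It lies at chr1:262543524-262543823, plus strand on GRCr8, and capitals mark matches as above.
Dusp5: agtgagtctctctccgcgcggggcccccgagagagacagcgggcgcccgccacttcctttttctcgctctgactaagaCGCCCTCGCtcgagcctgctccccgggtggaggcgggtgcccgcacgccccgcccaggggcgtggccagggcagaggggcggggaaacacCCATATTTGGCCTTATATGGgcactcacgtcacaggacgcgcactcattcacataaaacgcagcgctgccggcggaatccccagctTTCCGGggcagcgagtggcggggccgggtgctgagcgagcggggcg
The CArG boxes begin at bases 169 and 179 and directly follow each other. A CArG box stood in 1.64% of the 33469 promoters, and 7 of them (0.0209%) held at least 2, a cut set at the number in Dusp5. The window also held an EGR pattern at base 79 and CCGGAA at base 255, both on the other strand. No window of the 8 genes held TGACGTCA or TGANTCA, which stood in 1.83% and 7.33% of all promoters. The serum response factor gene Srf averaged 13.8 ± 0.725 FPKM in EC and 13.1 ± 0.465 in EN (n = 3 per group, SD) and did not pass (limma adjusted p = 0.457).

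Among the ETS factors Etv4 rose, and its difference was the largest of the 10 genes. Etv4 and Etv5 encode factors of the PEA3 group, whose transcription follows fibroblast growth factor and GDNF signals in many tissues. Etv4 (chromosome 10, 89685058 to 89700283) was at 27.0, 26.3 and 29.1 FPKM in EC and at 41.4, 41.3 and 36.5 in EN. EN replicate 3 was the lowest of its group and still above every EC library. The mean went from 27.5 ± 1.43 to 39.7 ± 2.79 FPKM (n = 3 per group, SD), a 1.45-fold increase with a log2 change of 0.51 ± 0.064 (SE) and a limma adjusted p of 0.0068. By p it ranked 152 of the 12198 genes and 50 among those with a positive change, and it passed in all 15 alternatives.

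Etv5 did not pass. It was at 53.1, 47.6 and 49.9 FPKM in EC and at 57.0, 57.2 and 54.3 in EN, so that EN replicate 3 was just above EC replicate 1. Its log2 change was 0.16 (95% interval 0.043 to 0.28, limma adjusted p = 0.073), and it passed without EC replicate 1 (adjusted p = 0.043). The ratio of Etv4 to Etv5 within a library was 0.510, 0.552 and 0.583 in EC and 0.726, 0.722 and 0.672 in EN, without overlap (exact two-sided permutation p = 0.1). Etv1, the other gene of the PEA3 group, averaged 25.3 ± 0.594 FPKM in EC and 23.6 ± 0.475 in EN (n = 3 per group, SD). Its log2 change of -0.10 did not pass (95% interval -0.19 to -0.00096, limma adjusted p = 0.152).

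Summed by family, the Sprouty genes took a smaller and the ETV genes a larger share of the total in EN. The 10 genes' summed FPKM was 389.4 to 393.6 in EC and 401.4 to 407.5 in EN, a ratio of 1.03. The Sprouty sum went from 114.4 ± 2.63 to 92.6 ± 2.38 FPKM and the ETV sum from 77.7 ± 3.27 to 95.9 ± 4.42 (n = 3 per group, SD). Within these sums Spry2 and Etv5 are the larger terms. The DUSP sum was 155.6 ± 3.43 in EC and 168.8 ± 2.33 in EN, and the SPRED sum 44.4 ± 2.21 and 47.1 ± 1.77. The Sprouty genes gave 29.2% ± 0.493 of the total in EC and 22.9% ± 0.418 in EN, and the ETV genes 19.8% ± 0.716 and 23.7% ± 0.956. The directions of the Sprouty, DUSP and ETV sums were the same on the TPM scale and with scaling to total reads. The ratio of Spry2 to Etv4 went from 2.98, 3.05 and 2.87 in EC to 1.59, 1.57 and 1.69 in EN.

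**Figure D3:**
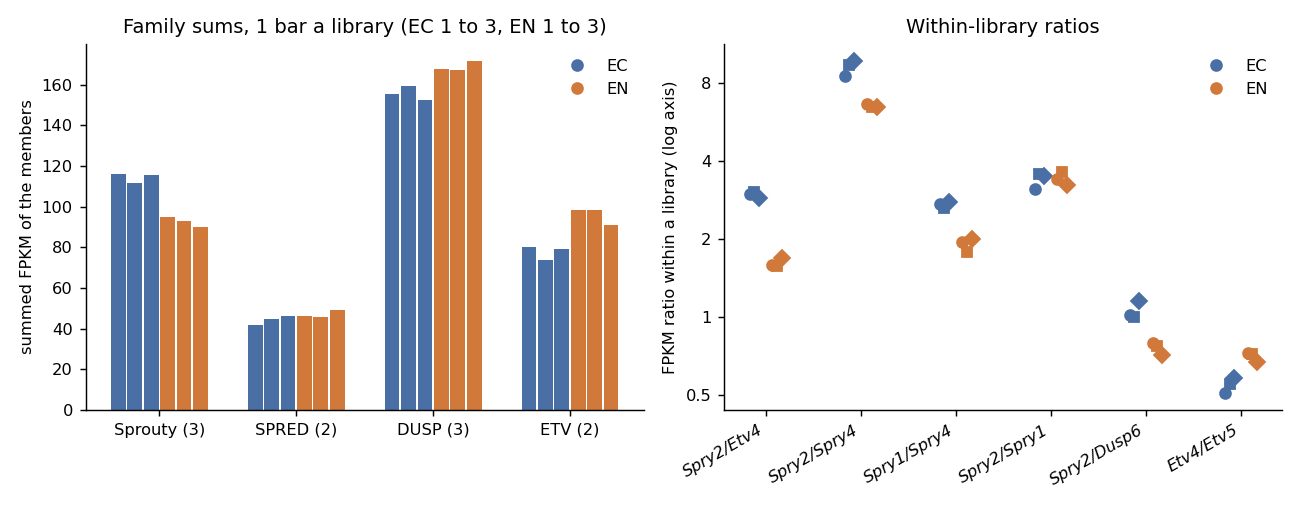
Left, summed FPKM of the members of each family in each library (bars from 0, EC then EN replicates 1 to 3). Right, ratios of FPKM between pairs of members within each library on a log axis, with the marker showing the replicate as in the plot of single genes. The Sprouty sum is lower and the ETV sum higher in every EN library, and Spry2 over Spry1 overlaps between the groups.

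The order of levels changed at the top. In EC the highest of the 10 was Spry2, whose range overlapped that of Dusp6, followed by Dusp4 and Etv5. In EN it was Dusp6, then Dusp4, followed by Spry2, with no overlap between neighbours down to Spred1. Etv4, Spred1 and Spry1 overlapped their neighbours in EC, at means of 27.5, 26.8 and 24.1 FPKM. In EN Etv4 (39.7) was clear of Spred1 (27.2), and Spry1 (18.8) overlapped Spred2 (19.9). Dusp5 and Spry4 were the lowest in both groups.

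Spry2 had the smallest p of the 10, and its pattern over the 6 libraries was compared with 8306 tested genes of at least 5 FPKM by Pearson's r of log2 values. The 3 most alike were Prtfdc1 (r = 0.997), Tnc (0.997) and Id4 (0.996). The libraries form 2 groups that Spry2 separates, and 19 genes had r above 0.99. Prtfdc1, for example, was at 51.0, 52.2 and 53.3 FPKM in EC and at 37.2, 36.9 and 34.7 in EN.

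Upstream of ERK, the receptor tyrosine kinase genes gave little difference. Of 10 tested, 1 passed, as lower, and 9 did not, with a median log2 change of 0.03. The share called was 10%, beside 14.4% of all genes. The lower one was the fibroblast growth factor receptor gene Fgfr3, at 17.0, 14.9 and 16.7 FPKM in EC and 12.3, 12.5 and 9.59 in EN (log2 change -0.47 ± 0.105 SE; limma adjusted p = 0.031). EN replicate 3 was the lowest, and the call was lost in 5 of the 6 fits with 1 library left out, all but that without EN replicate 3, with adjusted p of 0.066 to 0.103. Egfr had no read, so its level over the 6 libraries was at most 0.0072 FPKM (3 reads). The most abundant receptor genes of the list were Pdgfra, with means of 65.0 ± 1.57 (EC) and 64.6 ± 2.28 FPKM (EN), and Erbb3, with 47.0 ± 0.458 and 47.7 ± 1.34 (n = 3 per group, SD), neither of which passed. Receptor genes outside the rule for named genes were chosen after their values were seen.

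In the relay itself, of 28 genes 3 passed as higher and 5 as lower, and 20 did not pass, with a median log2 change of -0.06. The share called was 28.6%, beside 14.4% of all genes. With a minimum of 5 FPKM it was 34.6%, beside 22% of all genes. The split by direction was not stable: the TPM scale gave 5 higher and 2 lower, median centring 3 and 3, and voom 5 and 5. No lower gene passed without the filter or without replicate 1 or 2 of either group. Mknk2, a kinase that ERK activates and that phosphorylates a translation initiation factor, went from 32.2 ± 0.407 to 43.3 ± 1.16 FPKM (n = 3 per group, SD), a log2 change of 0.42 (limma adjusted p = 0.0028). Map2k2, which encodes MEK2, went from 74.2 ± 0.514 to 90.1 ± 1.75 FPKM (limma adjusted p = 0.0061). Both passed in all 15 alternatives. The adaptor gene Shc1 rose by 0.21 on the log2 scale, and Mapk3, which encodes ERK1, fell by 0.19. Their limma adjusted p was 0.029 and 0.026. The Shc1 call was lost without replicate 2 or 3 of EC or replicate 1 or 2 of EN (adjusted p of 0.084 to 0.101), and the Mapk3 call without replicate 1 or 2 of either group (0.055 to 0.099). The number called in the list was 2 or 3 without EC replicate 1, 2 or 3 or EN replicate 1 or 2.

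Other genes known to respond to ERK moved in both directions. Of 14 tested, 1 passed as higher and 4 as lower, and 9 did not pass, with a median log2 change of -0.09. The share called was 35.7%, beside 14.4% of all genes, and with a minimum of 5 FPKM 53.8%, beside 22%. Median centring, the replicate block, voom and a minimum of 5 FPKM each gave 3 higher and 4 lower, and 0 were higher without the filter or without replicate 2 or 3 of EC or replicate 1 or 2 of EN. Egr1, an immediate early transcription factor, was at 38.3, 40.1 and 37.9 FPKM in EC and at 18.1, 19.7 and 19.2 in EN. No other gene in these lists differed by as much. The mean went from 38.7 ± 1.17 to 19.0 ± 0.790 FPKM (n = 3 per group, SD), with a log2 change of -0.99, an SE of 0.047 and a limma adjusted p of 3.18e-04. Egr2, also a Schwann cell marker, fell by 0.55 on the log2 scale (limma adjusted p = 0.0070). Errfi1, a feedback inhibitor of EGF receptor family kinases, went from 28.6 ± 0.468 to 21.8 ± 0.907 FPKM (limma adjusted p = 0.0061). All 3 passed in all 15 alternatives. Hbegf, which encodes a ligand of the EGF receptor, fell by 0.23 (limma adjusted p = 0.030, and 0.084 to 0.110 without replicate 2 or 3 of EC or replicate 1 or 2 of EN). The higher gene was Plaur, the urokinase receptor, from 15.9 ± 1.99 to 23.5 ± 3.48 FPKM (limma adjusted p = 0.035, and 0.106 to 0.114 without those same libraries; named after its value was seen). Fosl1 and Epha2 lay just above the threshold, with limma adjusted p of 0.056 and 0.051, against 0.048 for both with median centring. Fos, Fosl1, Phlda1, Myc, Ccnd1 and Epha2 had log2 changes of -0.20, 0.18, -0.09, -0.18, -0.01 and 0.25 and did not pass (these were picked with their values in view).

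Of 12 transcription factor genes that act at ETS sites or downstream of ERK, 1 was higher, 1 was lower and 10 did not pass. Their median log2 change was 0.04, and the share called was 16.7%, beside 14.4% of all genes. Erf, an ETS repressor that ERK inactivates, was at 16.9, 15.8 and 15.0 FPKM in EC and at 22.5, 20.5 and 19.0 in EN (log2 change 0.35 ± 0.073 SE; limma adjusted p = 0.026). Ets1 was at 41.6, 40.0 and 39.8 FPKM in EC and at 35.0, 36.0 and 35.4 in EN (log2 change -0.19 ± 0.038 SE; limma adjusted p = 0.024). The groups did not overlap in either gene. Both calls were lost without replicate 2 or 3 of EC or replicate 1 or 2 of EN, with adjusted p of 0.072 to 0.089. Cic, which encodes capicua, averaged 41.8 ± 1.66 FPKM in EC and 45.4 ± 1.71 in EN (n = 3 per group, SD) and did not pass (limma adjusted p = 0.135; named after its value was seen).

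**Figure D4:**
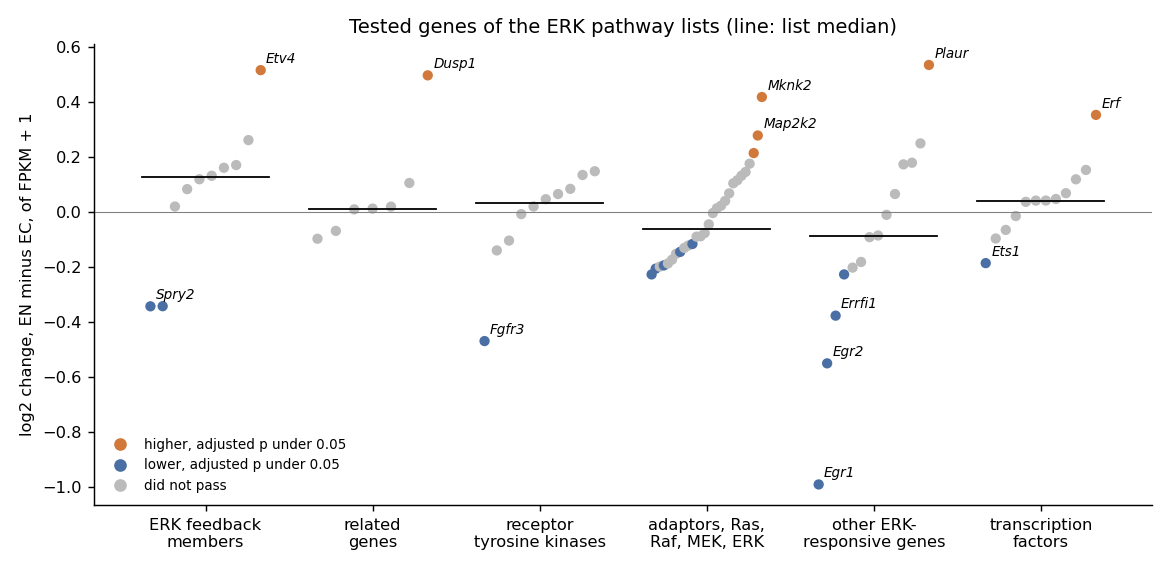
Log2 change (EN minus EC, vertical axis) of each tested gene in the 6 lists of the ERK pathway. Each point is a gene, in order of its change, and the lines are list medians, which run from -0.09 in the ERK-responsive list to 0.12 in the members. Egr1, at -0.99, lies lowest.

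The TPM scale, median centring and quantile normalization changed no member's call. Spry2 and Etv4 passed under all 15 alternatives, and no other member did. Without the expression filter, the calls on Fgfr3, Shc1, Mapk3, Hbegf, Plaur and Erf were lost, with adjusted p of 0.052 (Mapk3) to 0.084 (Plaur). The plot by setting shows this beside the members that passed in a few settings.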

How the data were processed

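RNA of 6 libraries labelled PC12, 3 EC and 3 EN, was extracted with Trizol and made into libraries with an Illumina TruSeq RNA kit, per the labels' protocols. The authors deposited 1 table of FPKM with gene symbols, coordinates and lengths. HISAT2 2.0.5 and the Rnor_6.0 build are named, per the submitters' processing notes. How reads were counted, with which annotation release, strand setting or filter, was in none of the labels or headers. No annotated model overlapped any of the 10 genes on either strand.

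Multiplied by gene length, the non-zero values of a library were whole multiples of a single step (100% of values, within 0.001), which gave back the reads. Models without a symbol (0.829% of reads) were kept. Limits from reads cover counting error only. EN and EC were compared with limma 3.58.1 (R 4.3.3) on log2(FPKM + 1), two-sided, with a variance trend and group as the only term. Genes entered with at least 1 FPKM on average over the 6 libraries. The fit was tested on simulated reads in which all genes shared 1 set spread beyond counting error. That test cannot show how the calls hold at the real spread between libraries.

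The members and lists were chosen with earlier results of these data known. Named were the 10 members, Ntn1, the tested relatives, up to 4 genes past the threshold with the smallest adjusted p of each other list, and the 3 genes most like the member with the smallest p. Other genes are said to be named after their values were seen, and values of some list genes are not reported here. Alternatives were pseudocounts of 0.1 and 0.5, no filter, a minimum of 5 FPKM on average, quantile normalization, median centring, TPM values, a replicate block, voom on the reads, and each library left out. Promoter sequences are from RefSeq on GRCr8, a build other than that of the table, and no coordinate was carried between them. Foxd3, Pecam1, Ier2 and Vgf of the lists had no row under that symbol.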

Additional observations from a re-analysis of the deposited data

How the results depend on the processing

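Over all genes, 1754 passed, and 1751 and 1759 with pseudocounts of 0.1 and 0.5. The count was 866 of 20495 with no filter and 2022 of 9204 with a minimum of 5 FPKM. It was 2347 with voom on the reads, and 338 to 2059 with 1 library left out. The lowest counts were 338 without EC replicate 2, 344 without EN replicate 2, 408 without EC replicate 3 and 446 without EN replicate 1. The count was 1616 without EC replicate 1 and 2059 without EN replicate 3. Of the 10 members, 3 passed (1 higher, 2 lower). With voom 6 passed, 4 of them higher, and with a mean of at least 5 FPKM 2 were higher. With 1 library left out 2 to 4 members passed, 1 to 2 higher and 1 to 2 lower. Without a filter, 2 genes passed in the relay list, 0 among receptors, 3 among ERK-responsive genes and 1 among transcription factors. With 1 library left out these counts were 2 to 10 for the relay, 0 to 1 for receptors, 3 to 7 for ERK-responsive genes and 0 to 2 for transcription factors, and the relatives stayed at 1. The cause of these differences in counts was not tested.

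Signs changed for 7 genes that had not passed, with 1 library left out and, for Ccnd1 and Pdgfra, also with other scalings. With 1 library left out, Spred1 ran from -0.0094 to 0.038, Dusp7 from -0.031 to 0.055, Dusp8 from -0.14 to 0.013, Dusp10 from -0.029 to 0.054 and Dusp16 from -0.021 to 0.050. Spred1 was at -0.0094 without EC replicate 1 and -0.0032 without EN replicate 3, Dusp7 at -0.031 without EC replicate 3 and -0.0062 without EN replicate 3, and Dusp8 at 0.013 without EC replicate 2. Dusp10 was at -0.0072 without EC replicate 1 and -0.029 without EN replicate 3, and Dusp16 at -0.021, -0.0097 and -0.0053 without EC replicate 1, EN replicate 1 and EN replicate 3. Ccnd1 was at 0.0052 on the TPM scale and 0.013 with voom, and ran from -0.032 to 0.0080 with 1 library left out, with positive values without EC replicate 1 and EN replicate 1 (0.0022). Pdgfra was at 0.0076 on the TPM scale, 0.00058 with quantile normalization and 0.015 with voom, and ran from -0.033 to 0.017, with positive values without EC replicate 3 (0.0059) and EN replicate 1.

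EC and EN share replicate numbers. The deviations of same-numbered libraries from their group means correlated at 0.088, -0.095 and -0.020 for numbers 1 to 3. Such values from 3 libraries a group cannot show whether libraries of the same number were paired. With the replicate block 1907 genes passed. Among the genes followed through the settings Fosl1 (adjusted p = 0.044) and Epha2 (0.040) were gained as higher and no call was lost. In the whole relay list, 4 genes passed as higher and 4 as lower with the block, against 3 and 5 in the reported fit. With 3 libraries a group, differences as small as those of Spry4, Dusp4 or Dusp6 were near the limit of what the spread allowed, although even Spry4 had 4505 reads.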
